A study of Mus musculus with 12 samples.

Results

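The genes of the mouse major histocompatibility complex (MHC) and of the machinery that supplies it with peptides were followed in a histone acetylation data set of T helper 17 (Th17) cells. Membership was by name: every protein-coding gene with a symbol starting H2- in the GRCm38.p6 annotation, plus Tap1, Tap2, Tapbp, B2m, Psmb8, Psmb9, Psmb10, Nlrc5, Ciita and Cd74. They number 48, of which 45 are placed on a chromosome, among 21783 placed protein-coding genes. H2-Q8, H2-Q9 and H2-T18 are not placed in that annotation and have no values here. On chromosome 17 lie 40 of the 45, and B2m, Ciita, Cd74, Nlrc5 and Psmb10 lie elsewhere.

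The mark profiled was H3K9/14ac, histone H3 acetylated at lysine 9 or 14, which is found at active promoters and enhancers. RELACS, a form of ChIP-seq, was used, which barcodes the chromatin of each sample before samples are pooled for immunoprecipitation. The labels give 3 wild type (WT) and 3 Slc2a3-fl/fl Cd4-cre (KO) ChIP libraries, all from C57BL/6 mice. In both genotypes naive T cells were cultured for 3 days under Th17 polarizing conditions and then given PMA and ionomycin for 3 h, with Bref A and Monensin present. Slc2a3 encodes the glucose transporter GLUT3, and Cre expressed from the Cd4 promoter acts in T cells from their development in the thymus onwards. The labels do not say whether WT mice carried Cd4-cre, nor whether replicates came from separate animals, so p-values measure only the spread between these libraries.

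Facts of the whole series touch every value given here. Peak lists held 39264 to 43507 peaks per library. The mean coverage by fragments, solved from those lists, was 2.97 to 3.99 in WT and 1.85 to 2.29 in KO, so the KO libraries were the shallower ones throughout. At Slc2a3 the authors' deposited table gave a log2 fold change of KO over WT of -1.80 (FDR 8.24e-18). At Cd4 it gave 6.77 (FDR 3.44e-168). KO replicate 3 had 11 peaks on chromosome Y where the others had 1 or 2. Of the Th17 and T cell markers, 10 of 11 had a peak at a gene end in every WT library and 9 or 10 in the KO libraries, while Rora had none in any library.

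MHC class I molecules present peptides of cytosolic proteins at the cell surface, as a polymorphic heavy chain bound to beta-2 microglobulin. The immunoproteasome subunits cut those peptides, the TAP transporter carries them into the endoplasmic reticulum, and tapasin loads them. Class II molecules present peptides of endocytosed proteins and are made mainly by B cells, dendritic cells and macrophages, and mouse T cells make little of them. NLRC5 and CIITA are the transactivators of class I and class II genes, and interferon gamma induces both pathways.

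RefSeq promoter sequences (GRCm38.p6) matched 38 of the 45 placed members. Promoters of 8 members named in the results below are shown. Each runs from 250 bases before to 30 after the annotated start, 5′ to 3′ on the strand of the gene. Capitals mark matches on either strand to 4 motifs, namely the core of the interferon-stimulated response element (the longer run of capitals in B2m and H2-T23), the NF-kB site of class I enhancer A (the longer run in H2-K1, H2-D1 and H2-Q7), the core of the Y box, which reads CCAAT, and a cyclic AMP response element, as in the X2 box of class II genes, which reads TGACGTCA. The promoter of the class I light chain gene, B2m, lies at chr2:122147437-122147716 (+). The classical class I heavy chain genes H2-K1 and H2-D1 have theirs at chr17:34000318-34000597 (-) and chr17:35262844-35263123 (+). Nonclassical class I genes are represented by H2-Q7 at chr17:35438905-35439184 (+), H2-T23 at chr17:36032672-36032951 (-) and H2-T-ps at chr17:36111647-36111926 (-). The Tap1 promoter at chr17:34187306-34187585 (+) overlaps that of Psmb9, which is transcribed the other way, and the class II gene H2-Aa has its promoter at chr17:34287794-34288073 (-).
B2m: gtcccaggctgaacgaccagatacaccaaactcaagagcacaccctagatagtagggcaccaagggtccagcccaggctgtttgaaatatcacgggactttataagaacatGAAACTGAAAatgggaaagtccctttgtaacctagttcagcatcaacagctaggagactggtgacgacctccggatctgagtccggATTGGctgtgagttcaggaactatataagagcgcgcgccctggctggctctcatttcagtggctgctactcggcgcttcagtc
H2-K1: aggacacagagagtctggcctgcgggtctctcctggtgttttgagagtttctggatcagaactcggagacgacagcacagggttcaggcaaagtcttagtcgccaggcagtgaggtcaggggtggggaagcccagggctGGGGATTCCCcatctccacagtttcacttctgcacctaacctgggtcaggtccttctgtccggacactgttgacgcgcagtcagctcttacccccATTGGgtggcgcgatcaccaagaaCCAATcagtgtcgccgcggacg
H2-D1: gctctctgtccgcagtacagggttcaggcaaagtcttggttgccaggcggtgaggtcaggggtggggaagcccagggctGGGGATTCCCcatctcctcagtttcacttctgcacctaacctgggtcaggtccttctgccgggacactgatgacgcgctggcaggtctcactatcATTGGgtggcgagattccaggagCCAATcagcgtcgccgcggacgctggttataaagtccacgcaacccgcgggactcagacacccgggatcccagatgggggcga
H2-Q7: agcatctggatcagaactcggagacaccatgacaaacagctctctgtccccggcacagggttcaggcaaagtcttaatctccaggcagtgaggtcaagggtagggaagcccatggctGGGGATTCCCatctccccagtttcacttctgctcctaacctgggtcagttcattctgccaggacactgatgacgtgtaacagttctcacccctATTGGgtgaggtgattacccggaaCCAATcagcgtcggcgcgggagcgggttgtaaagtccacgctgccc
H2-T23: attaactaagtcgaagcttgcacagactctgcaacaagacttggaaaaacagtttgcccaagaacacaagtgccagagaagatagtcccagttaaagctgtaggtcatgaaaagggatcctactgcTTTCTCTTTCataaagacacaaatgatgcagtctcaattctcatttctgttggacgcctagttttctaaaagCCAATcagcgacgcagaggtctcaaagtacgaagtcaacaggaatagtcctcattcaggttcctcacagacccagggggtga
H2-T-ps: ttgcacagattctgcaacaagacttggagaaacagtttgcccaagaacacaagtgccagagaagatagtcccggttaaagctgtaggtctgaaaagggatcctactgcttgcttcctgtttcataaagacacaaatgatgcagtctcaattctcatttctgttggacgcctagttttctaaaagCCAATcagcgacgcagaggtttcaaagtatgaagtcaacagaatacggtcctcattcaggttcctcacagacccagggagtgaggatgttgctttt
Tap1: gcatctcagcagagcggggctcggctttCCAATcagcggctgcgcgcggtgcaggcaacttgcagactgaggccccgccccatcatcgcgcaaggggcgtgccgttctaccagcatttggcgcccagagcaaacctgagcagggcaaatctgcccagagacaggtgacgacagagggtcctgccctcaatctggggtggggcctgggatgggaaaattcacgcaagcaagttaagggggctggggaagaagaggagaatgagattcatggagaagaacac
H2-Aa: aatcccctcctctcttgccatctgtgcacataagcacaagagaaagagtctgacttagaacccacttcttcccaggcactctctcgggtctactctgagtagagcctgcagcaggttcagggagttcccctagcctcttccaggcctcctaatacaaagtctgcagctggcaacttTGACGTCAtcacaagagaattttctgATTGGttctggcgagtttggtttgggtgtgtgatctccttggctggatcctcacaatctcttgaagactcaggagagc

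The NF-kB letters were present in the promoters of H2-K1, H2-D1, H2-Q6 and H2-Q7, against 0.107% of the 32851 promoters of the table. A match to the core of the interferon element was found in B2m, H2-T22 and H2-T23, against 3.44% of all promoters. Variants of that core were not searched for. Promoters without a match, such as those of H2-K1, H2-D1 and H2-Q7, may therefore still hold an interferon element. TGACGTCA was found in H2-Aa alone among the members in the table, against 1.79%, and CCAAT in 33 of the 38 members, against 37.4%. The motifs do not overlap one another in the sequences shown. Some class I promoters are near copies of one another. H2-Q6 and H2-Q7 promoters were 97.3% identical over 261 aligned columns, H2-T23 and H2-T-ps 94.5% over 289, and H2-K1 and H2-D1 87.9% over 240. Reads from such stretches can be split or lost between copies, so values of single class I genes are uncertain to that extent.

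For the comparison of genotypes, the authors' deposited table gives a log2 fold change, taken at the best 150 bp window, and an FDR for each of 40909 regions. A region was assigned to a gene when it lay within 2 kb of either gene end, and each gene took the region with its lowest FDR. By that rule 28 of 45 members had a region, 37 regions in all, and 17 had none. At an FDR under 0.05, the authors' deposited table has 16 of the 28 members lower in KO, 3 higher and 9 uncalled. The background over all 11624 genes with a region was 64.3% lower and 6.40% higher. The median log2 fold change in that table was -0.72 over the members and -0.81 over all genes. The members as a whole were therefore lower in KO about as often as any gene with a region. Counted by region, the authors' deposited table had 22 of 37 member regions lower and 3 higher, against 55.3% and 6.17% of all 13150 gene-end regions and 46.3% and 12.7% of all 40907 located regions. In bulk chromatin, fewer cells carrying the mark and less of the mark per cell cannot be told apart.

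**Figure D1:**
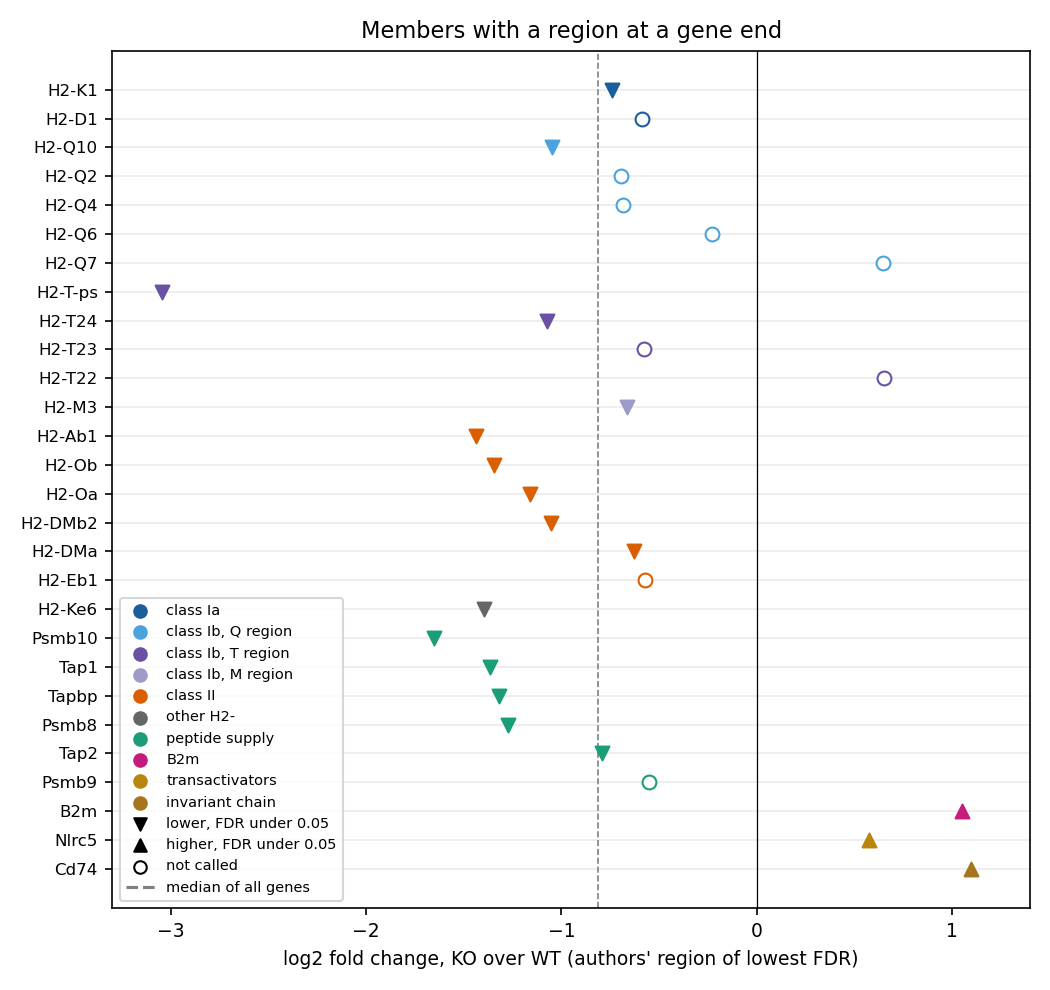
Log2 fold change of KO over WT (x axis) for the 28 members with a region at a gene end, from the authors' deposited table, by group of members (colours) and call (marker shape). B2m, Nlrc5 and Cd74 are the 3 members called higher, and the dashed line is the median of all genes, -0.81.

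How libraries were scaled for the authors' deposited table is not stated in the labels, and a scaling shifts every value alike. Scaling by mean coverage would add 0.30 to each log2 fold change, which moves the median of all genes to -0.51 and that of the members to -0.42. Every member called lower lay further than 0.30 below 0, so none could change direction under that shift. H2-Q6, uncalled, moved from -0.23 to 0.07. The FDRs were left as they stand, so which members would be called at that scaling is not known.

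The members called higher sit at single steps of both pathways. B2m, the light chain shared by all class I molecules, stood at 1.05 on the log2 scale in the authors' deposited table (FDR 9.60e-05). Its region, chr2:122145301-122149950, spans the promoter, and the table counts 8 of its 31 windows as going up and none as going down. The summit, solved from the deposited fold and p, held 254, 252 and 241 fragments in the WT libraries and 199, 228 and 196 in KO. All KO summits were thus below all WT summits in fragments (two-sided exact permutation p = 0.1, the smallest that 3 against 3 libraries allow). Divided by the mean coverage of each library, the B2m summit stood at 63.7, 72.4 and 81.1 in WT and at 108, 99.6 and 102 in KO. On that scale every KO library was above every WT library (exact permutation p = 0.1). The window that gave the fold change in the authors' deposited table lay at -1261 bp from the B2m start, that is upstream, and 792 to 2523 bp from the summits of the 6 libraries, which themselves lay up to 1731 bp apart. Peaks at the B2m ends covered 4001, 4001 and 3712 bp in WT and 4001, 4547 and 4001 bp in KO, which overlap. A cover of 4001 bp is 1 gene end filled over 2 kb to each side, which limits what this overlap shows.

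Cd74 encodes the invariant chain, which guides class II molecules to endosomes and blocks their groove on the way. Its region at chr18:60802051-60804900 was at 1.10 (FDR 1.20e-05) on that log2 scale in the authors' deposited table, with 9 of 19 windows going up. Cd74 summits held 341, 309 and 213 fragments in WT and 285, 286 and 210 in KO, so the groups overlapped (exact permutation p = 0.5). Over mean coverage the Cd74 values were 85.5, 88.7 and 71.7 in WT and 154, 125 and 109 in KO, with no overlap (exact permutation p = 0.1). Inside the gene the authors' deposited table held a further Cd74 region of the opposite sign, chr18:60805951-60806250, at -1.02 (FDR 1.20e-04). A peak overlapped that inner region in 1 WT library and in no KO library.

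Nlrc5, the class I transactivator, was the weakest of the higher calls, at 0.58 (FDR 0.0445) in the authors' deposited table, with 3 of 26 windows going up. That call was lost at an FDR of 0.01. Nlrc5 summits held 226, 178 and 142 fragments in WT and 113, 166 and 135 in KO. The Nlrc5 summits of WT lay at other positions than those of KO, up to 2220 bp apart. Over mean coverage they were 56.7, 51.1 and 47.8 in WT and 61.1, 72.5 and 70.3 in KO, every KO library above every WT library (exact permutation p = 0.1). Further into Nlrc5 the authors' deposited table held 8 regions, of which chr8:94437301-94437900 was higher at 0.69 (FDR 0.0124). The inner regions chr8:94454401-94456650 and chr8:94456801-94460250 were lower, at -0.84 (FDR 0.0118) and -0.78 (FDR 0.0200). Ciita, the class II transactivator, had no region and no peak at either end in any library. A peak of 320 or 324 bp lay 12.2 kb inside Ciita in WT replicates 1 and 2 and in KO replicate 2.

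The classical heavy chain genes lay near the median of all genes. H2-K1 was called lower in the authors' deposited table, at -0.74 (FDR 0.0133), and H2-D1 was uncalled, at -0.59 (FDR 0.111). H2-K1 summits held 212, 259 and 203 fragments in WT and 132, 166 and 141 in KO, with no overlap (exact permutation p = 0.1). Those summits lay up to 938 bp apart. Divided by coverage the H2-K1 values overlapped, at 53.1, 74.4 and 68.4 in WT and 71.4, 72.5 and 73.4 in KO. H2-D1 summits held 273, 292 and 193 fragments in WT and 163, 199 and 161 in KO. Over coverage H2-D1 stood at 68.4, 83.8 and 65.0 in WT and 88.1, 86.9 and 83.9 in KO, with the lowest KO value just above the highest WT value (exact permutation p = 0.1). Peaks covered 2523, 2579 and 2581 bp at the H2-K1 ends in WT and 2480 bp in each KO library. At H2-D1 the covered lengths overlapped, at 3903, 3278 and 3607 bp in WT and 3158, 3903 and 3504 bp in KO. Within 5 kb instead of 2 kb of a gene end, a further region made H2-D1 lower in the authors' deposited table, at -0.92 (FDR 3.16e-04).

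Nonclassical class I genes lie in the Q, T and M regions of the complex. Of the 6 Q region genes, H2-Q10, which encodes a secreted class I molecule, was called lower in the authors' deposited table at -1.05 (FDR 0.00142). H2-Q10 peaks covered 1500, 2228 and 2023 bp in WT and 602, 678 and 1265 bp in KO. H2-Q2, H2-Q4 and H2-Q6 were uncalled at -0.70, -0.68 and -0.23 in that table, and H2-Q1 had no peak in any library. H2-Q7, which encodes the Qa-2 antigen, was uncalled at 0.65 (FDR 0.0551) in the authors' deposited table, with 3 of 10 windows going up and none down. Peaks at H2-Q7 covered 1867, 1706 and 2072 bp in WT and 2498, 2416 and 2597 bp in KO, and at H2-Q4 1465, 1265 and 1265 bp in WT and 1866 bp in each KO library. H2-Q4 and H2-Q7 were the 2 members with longer peak cover in every KO than in every WT library, a pattern of 3.05% of the 12425 genes with a peak. Summits at H2-Q7 held 128, 175 and 111 fragments in WT and 93, 113 and 101 in KO. Over coverage they overlapped, at 32.1, 50.2 and 37.4 in WT and 50.3, 49.3 and 52.6 in KO.

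In the T region, H2-T-ps, annotated as protein-coding although its name marks a pseudogene, had 2 regions, both lower in the authors' deposited table. Beyond the far end of the gene, chr17:36106201-36107100 was at -3.05 (FDR 1.73e-09), with a peak in every WT library and in no KO library. WT summits in it held 44, 44 and 28 fragments. The region over the H2-T-ps promoter, chr17:36110401-36112200, was at -1.48 (FDR 5.12e-05). By the region of lowest FDR within 2 kb, H2-T-ps was the lowest member, whereas within 1 kb or by the widest region it stood at -1.48 and Psmb10, at -1.65, was the lowest in the authors' deposited table. Its summits held 288, 252 and 213 fragments in WT and 119, 138 and 135 in KO, and over coverage 72.2, 72.4 and 71.7 in WT and 64.3, 60.3 and 70.3 in KO. H2-T23, which encodes Qa-1 and has the near-identical promoter shown above, was uncalled at -0.58 (FDR 0.0688) in the authors' deposited table. Within 5 kb of a gene end, the region chr17:36018601-36027150, shared with H2-T24, made H2-T23 lower at -0.80 (FDR 0.00268) in that authors' deposited table. H2-T23 summits held 354, 341 and 281 fragments in WT and 194, 278 and 216 in KO, and over coverage 88.7, 97.9 and 94.6 in WT and 105, 121 and 112 in KO. Over coverage KO was below WT at the H2-T-ps promoter and above WT at that of H2-T23, each without overlap between genotypes (exact permutation p = 0.1 for each). No test of the difference between the 2 genes was made, and reads shared by such copies add to its uncertainty.

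H2-T24 had the highest recovered summit of any member, with 1053, 1152 and 924 fragments in WT and 592, 828 and 712 in KO at chr17:35997901-36004500. Both of its regions were called lower by the authors' deposited table, at -1.08 (FDR 1.21e-07) there and -0.80 (FDR 0.00268) at chr17:36018601-36027150. Over coverage the summits of the first H2-T24 region overlapped, at 264, 331 and 311 in WT and 320, 362 and 371 in KO. The best window of that region lay 1863 to 2015 bp from those summits. All of these summits lay outside the H2-T24 span. No RefSeq promoter matched H2-T24, so whether the region holds its promoter is not known. H2-T22 was uncalled, at 0.65 (FDR 0.0836) inside the gene and -0.53 (FDR 0.757) over its promoter in that table. H2-T3 had no peak. Of the 12 M region genes, H2-M3, which presents formylated bacterial peptides, was the only member with a peak at a gene end, and 11 had none in any library. H2-M3 was called lower at -0.66 (FDR 0.0359) in the authors' deposited table, a call in which 1 of 16 windows went down. H2-M3 summits held 425, 437 and 368 fragments in WT and 249, 294 and 292 in KO.

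Class II genes encode the chains that present peptide to CD4+ T cells and those that exchange the peptide. Of 9 class II members 6 had a region, of which 5 were lower and none higher in the authors' deposited table, with a median of -1.11. Over all genes with a region 64.3% were lower, with a median of -0.81. The lowest were H2-Ab1, the beta chain of the classical I-A molecule, at -1.44 (FDR 6.94e-06) and H2-Ob, the beta chain of the peptide-loading inhibitor H2-O, at -1.34 (FDR 3.00e-05) in the authors' deposited table. H2-Oa, the partner chain of H2-Ob, was at -1.16 (FDR 1.69e-04), H2-DMb2, a chain of the peptide exchanger H2-DM, at -1.05 (FDR 0.00112) and H2-DMa at -0.63 (FDR 0.0384) in the same authors' deposited table. The H2-DMa region, chr17:34117501-34119150, lies just upstream of the gene span and held 98, 122 and 82 fragments at its summits in WT and 55, 46 and 46 in KO. The wider H2-DMa region, chr17:34119451-34123950, over its promoter and also within 2 kb of Brd2, was uncalled at -0.51 (FDR 0.107) in the authors' deposited table. Its summits held 408, 552 and 400 fragments in WT and 320, 333 and 309 in KO. With the widest region, or at an FDR of 0.01, H2-DMa was no longer called. Further into the gene, chr17:34135501-34136100 was lower at -1.02 (FDR 3.76e-04) in the authors' deposited table. A peak overlapped that inner region in every WT library and in no KO library, and within 5 kb of a gene end it stood for H2-DMa. The other inner H2-DMa regions were uncalled, at -0.59 (FDR 0.123) and -0.60 (FDR 0.102). H2-Eb1, of the classical I-E molecule, was uncalled in the authors' deposited table at -0.57 (FDR 0.0858). H2-Aa, H2-Eb2 and H2-DMb1 had no region and no peak over the gene in any library.

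Peaks of several class II genes were found in WT libraries alone. At H2-Oa they covered 1213, 1120 and 1111 bp in WT and 0 in each KO library. H2-DMb2 peaks covered 289, 574 and 778 bp in WT and 0 in each KO library. H2-Ob had no peak in WT replicate 1, 442 bp in replicate 2, 693 bp in replicate 3 and 0 in each KO library. Peaks in all 3 WT and none of the 3 KO libraries were seen at 1.99% of the 12425 genes with a peak. Summits there were low where they existed, at 67, 70 and 56 fragments in WT at H2-Oa and 55, 54 and 41 at H2-DMb2, and a missing peak in the shallower KO libraries does not show that the mark was absent. At H2-Ab1 peaks covered 1569, 1944 and 1568 bp in WT and 824, 660 and 1195 bp in KO (exact permutation p = 0.1). H2-Ab1 summits held 49, 74 and 56 fragments in WT and 29, 38 and 34 in KO, and over coverage they overlapped, at 12.3, 21.2 and 18.9 in WT and 15.7, 16.6 and 17.7 in KO. At H2-Eb1 peaks covered 1026, 1107 and 881 bp in WT and 701, 469 and 474 bp in KO, but with peaks called on single reads the mean was 42.3 bp higher in KO.

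**Figure D2:**
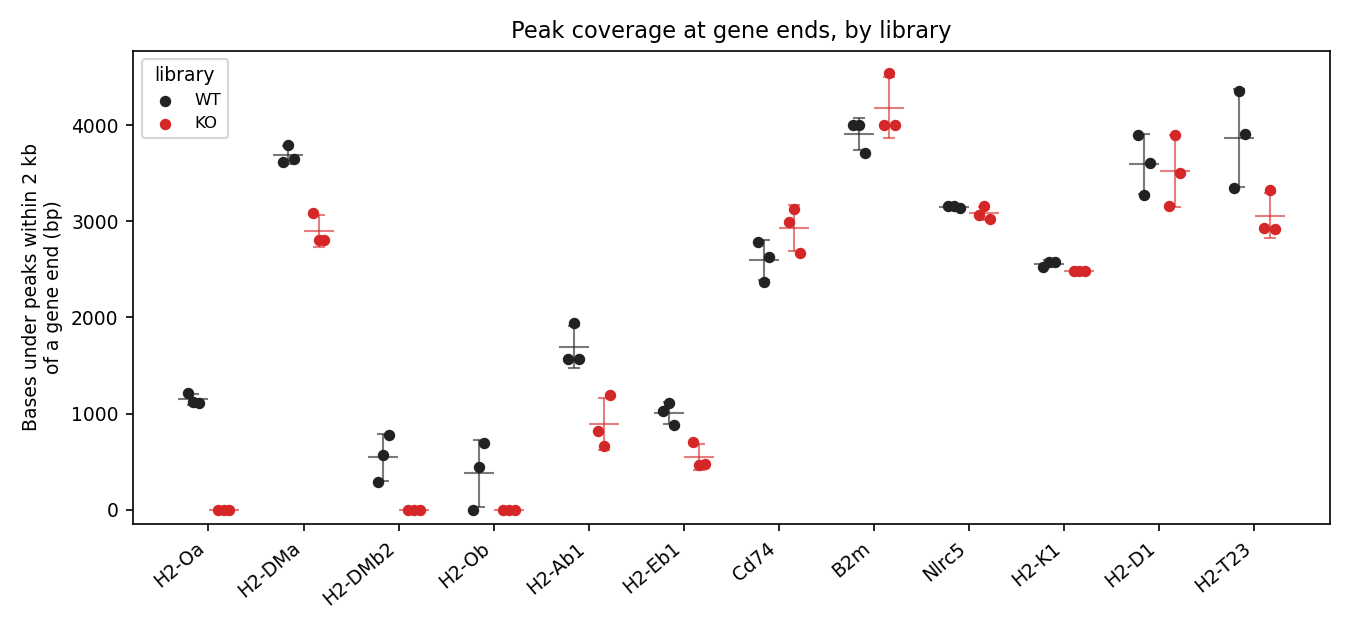
Bases under peaks within 2 kb of a gene end (y axis, bp) at 12 members, with 1 point per library, the mean as a bar and the SD as whiskers (n = 3 per genotype). H2-Oa, H2-DMb2 and H2-Ob are at 0 in every KO library, while B2m, Nlrc5 and H2-D1 overlap between WT and KO. Peaks are cut at 2 kb from a gene end, and 4001 bp, as at B2m, is 1 gene end covered in full.

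Summed peak cover at markers of cells that make class II was shorter in KO as well. At all gene ends KO cover was 84.2% of WT. Peaks at 6 B cell markers covered 8072 to 9100 bp in WT and 5354 to 5973 bp in KO, with Cd79b, Ms4a1 and Pax5 at 0 in every library. Cd79a, Ebf1 and Blnk were lower in the authors' deposited table, at -1.47, -1.44 and -2.09. Over all genes with a region 64.3% were lower. Cover at these 3 was shorter in every KO than in every WT library, and Blnk had no peak in KO. Peaks at the 9 dendritic and myeloid markers covered 7225 to 8200 bp in WT and 5566 to 5725 bp in KO, with Itgam, Lyz2 and Flt3 at 0 in every library. Among these, cover was shorter in every KO library at Spi1 and Cd68. Itgax peaks covered 0, 420 and 967 bp in WT and 0 in each KO library. Spi1, Cd68 and Itgax were lower in the authors' deposited table. Cover overlapped at Zbtb46 and Cd14, both uncalled, with Cd14 at 1200, 1364 and 1282 bp in WT and 1502, 1420 and 1282 bp in KO. For comparison, the 11 Th17 and T cell markers covered 47374 to 48755 bp in WT and 32003 to 36039 bp in KO. The 5 CD8 T and NK cell markers covered 1931 to 2732 bp in WT and 674 to 1554 bp in KO. The part of other cell types in the class II values was not tested.

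Genes of peptide supply cut proteins to peptides, carry these into the endoplasmic reticulum and load them. Of the 6, 5 were called lower and none higher in the authors' deposited table, with a median of -1.29, against 64.3% lower and -0.81 over all genes. Tap1 and Psmb8 share the region behind the Tap1 call, so that call is not of Tap1 alone. The Psmb8 call came from another region, assigned to no other member. Psmb10, an immunoproteasome subunit, was the lowest at -1.65 (FDR 1.67e-07), followed by Tap1 at -1.37 (FDR 2.47e-04), Tapbp, which encodes tapasin, at -1.32 (FDR 5.75e-07) and Psmb8 at -1.27 (FDR 5.62e-06) in that authors' deposited table. Tap2 was lower at -0.79 (FDR 0.00229), and Psmb9 was uncalled at -0.55 (FDR 0.249) in the same authors' deposited table.

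These genes share regions with each other and with neighbours. Psmb9 and Tap1 are divided by a bidirectional promoter in the region chr17:34186051-34188750, in which the authors' deposited table counts 1 of 18 windows going down. Summits in it held 196, 196 and 165 fragments in WT and 114, 158 and 116 in KO, and over coverage 49.1, 56.3 and 55.6 in WT and 61.6, 69.0 and 60.4 in KO. Over coverage every KO library was above every WT library there (exact permutation p = 0.1). The called Tap1 region, chr17:34197301-34199550, lies at the far end of Tap1 and over the start of Psmb8, and 14 of its 15 windows went down in the authors' deposited table. Summits in that region held 151, 226 and 190 fragments in WT and 88, 98 and 75 in KO. Over coverage they overlapped, at 37.9, 64.9 and 64.0 in WT and 47.6, 42.8 and 39.1 in KO. The region at the far end of Psmb8, chr17:34200601-34201800, held 79, 113 and 80 fragments at its summits in WT, 30 in each of KO replicates 1 and 2, and had no peak in KO replicate 3. So the promoter shared by Psmb9 and Tap1 was uncalled while the Psmb8 promoter region at the other end of Tap1 was lower.

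At Tapbp, too, the called region was not the promoter. Its promoter region, chr17:33918901-33920850, was uncalled at -0.57 (FDR 0.0703) in the authors' deposited table, and the called region, chr17:33928651-33931800, lies at the far end, also within 2 kb of Rgl2. Fragments at the summit of the far Tapbp region numbered 140, 166 and 118 in WT and 58, 81 and 68 in KO. Over coverage these overlapped, at 35.1, 47.7 and 39.7 in WT and 31.4, 35.4 and 35.4 in KO. The Tap2 region, chr17:34203601-34206150, held 238, 282 and 235 fragments at its summits in WT and 134, 151 and 121 in KO. Divided by coverage the Tap2 values overlapped, at 59.7, 81.0 and 79.1 in WT and 72.4, 65.9 and 63.0 in KO. Psmb10 summits held 233, 244 and 173 fragments in WT and 117, 147 and 148 in KO, in a region also within 2 kb of Lcat. Over coverage the Psmb10 values overlapped, at 58.4, 70.1 and 58.2 in WT and 63.2, 64.2 and 77.1 in KO. The window behind the Psmb10 call in the authors' deposited table lay 1566 bp downstream of its start. H2-Ke6, which carries the H2- prefix but encodes a steroid dehydrogenase, was lower in that authors' deposited table at -1.39 (FDR 7.10e-10), with all 12 windows of the region going down and Ring1 and Slc39a7 within 2 kb of it. The neighbouring H2-Ke6 region, chr17:34024051-34025550, held 282, 330 and 255 fragments at its summits in WT and 106, 149 and 126 in KO. That region is also within 2 kb of Ring1.

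Where a region covered a member's promoter, the best window of the authors' deposited table was compared with the gene start and the summits. Of 16 such regions with a summit in all 6 libraries, 15 had the window's centre more than 75 bp from every summit, and 11 more than 500 bp. Of all 18 regions over a promoter, 11 had it downstream of the start, of which 7 were lower and 4 uncalled. In the other 7 it lay upstream, with 1 lower, 1 higher and 5 uncalled. Over all protein-coding genes, regions with a downstream best window were lower in 56.0% of 4331 and those with an upstream one in 64.3% of 3482.

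**Figure D3:**
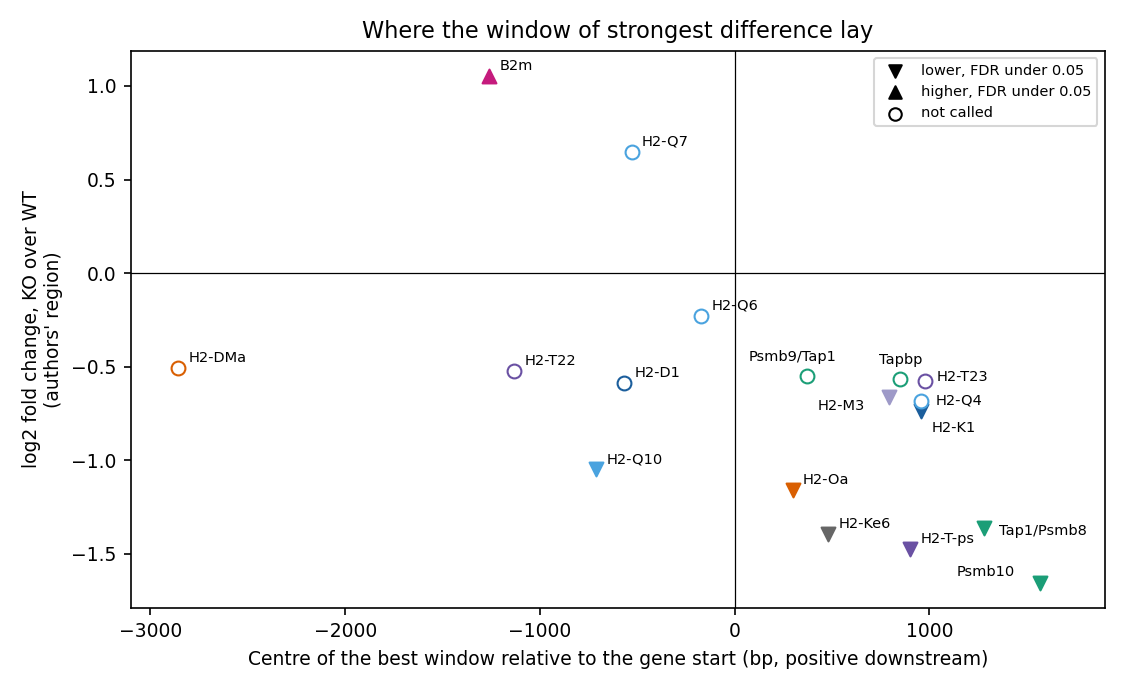
Distance of the centre of the best window from the gene start (x axis, bp, positive downstream) against the log2 fold change of KO over WT in the authors' deposited table, for the 18 member regions that cover a promoter. Of the regions with the window downstream, 7 of 11 were called lower, and B2m, the call of opposite sign, has its window at -1261 bp.

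Summits themselves gave a further view. In 27 member regions a summit was recovered in all 6 libraries. The 6 summits lay within 500 bp of each other in 19 of them and further apart in 8, among these B2m, Nlrc5, H2-K1 and the promoter shared by Psmb9 and Tap1, so there the heights compare different positions. In fragments, 23 of them were lower in every KO than in every WT library, none was higher and 4 overlapped, against 87.3% lower and 0.432% higher among 9256 gene-end regions. Over coverage 7 were higher in every KO library, 3 were lower and 17 overlapped, with backgrounds of 19.1% higher and 17.7% lower. The 7 were those of B2m, Cd74, Nlrc5, H2-D1, H2-T23, H2-M3 and the promoter shared by Psmb9 and Tap1. The 3 were 2 regions of H2-Ke6 and the promoter region of H2-T-ps. Neither of those H2-Ke6 regions covers its promoter. One also lies within 2 kb of Ring1 and the other within 2 kb of Slc39a7 and Rxrb. H2-M3 was called lower in the authors' deposited table, so its direction differed between the summit over coverage and the best window.

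**Figure D4:**
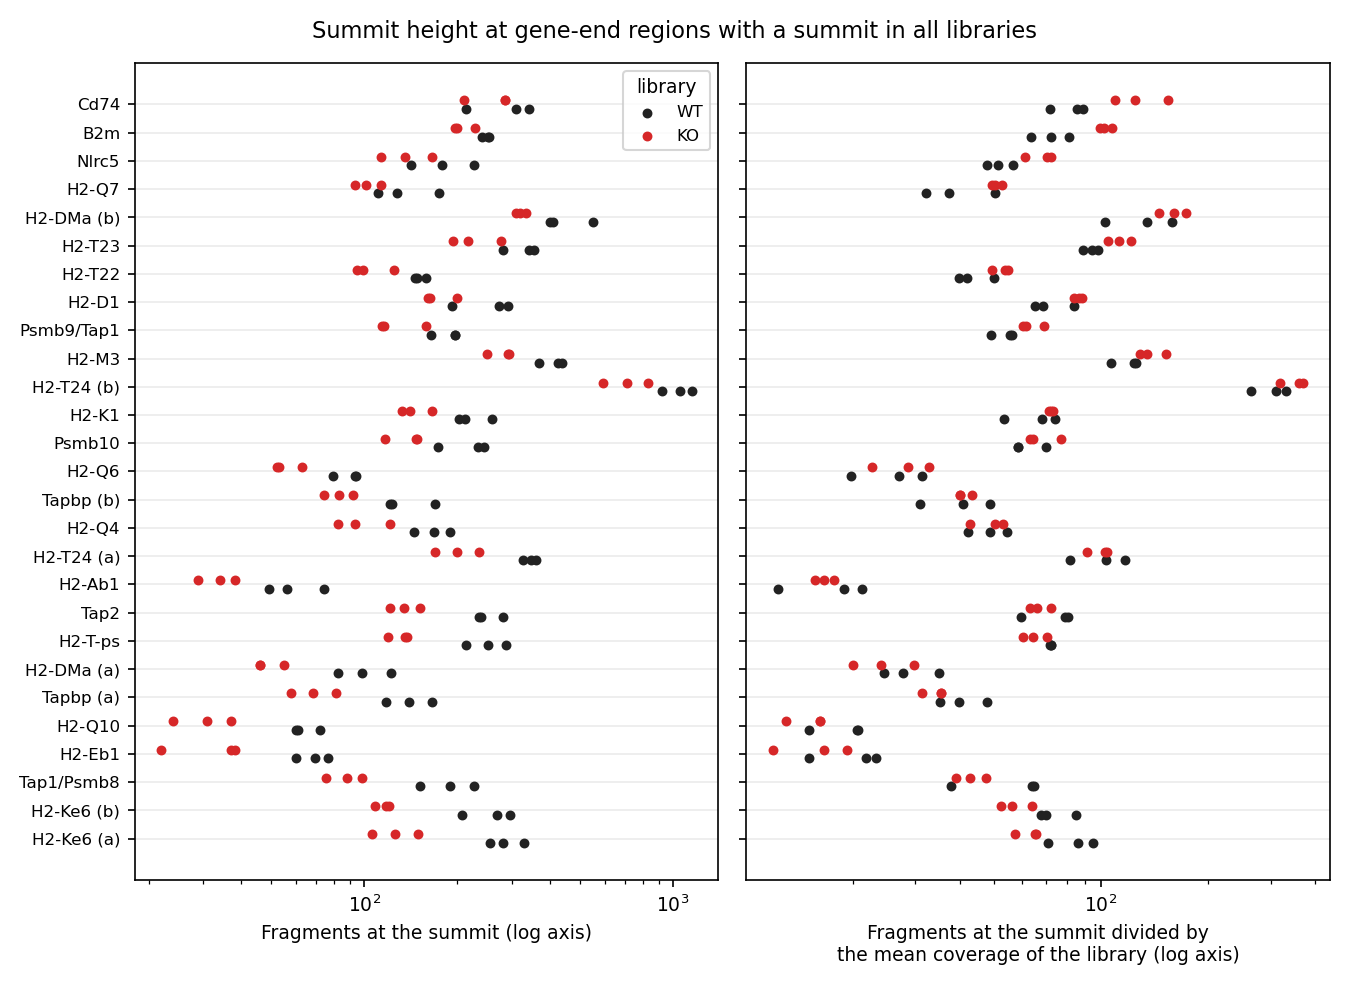
Fragments at the summit (left) and the same divided by the mean coverage of the library (right), both on log axes, for the 27 member regions with a summit in all 6 libraries, 1 point per library. KO points lie left of WT points in most rows on the left, and right of them at Cd74, B2m and Nlrc5 on the right.

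Peaks were also counted at member gene ends. Members with a peak numbered 27, 28 and 28 in WT and 24, 25 and 24 in KO, 27.7 ± 0.58 against 24.3 ± 0.58 (SD, n = 3). Summed peak cover at member ends was 74736, 78014 and 77022 bp in WT and 62395, 67633 and 63298 bp in KO. KO cover was 84.1% of WT at member ends and 84.2% at all gene ends. The number of members with a peak in KO was 88.0% of that in WT, against 95.1% for all genes, a difference that was not tested. Of the 45 members 28 had a peak in some library and 24 in all 6, against 57.0% and 47.8% of all genes. Cover was shorter in every KO than in every WT library at 13 members, against 38.2% of all genes with a peak.

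Along chromosome 17 the calls of all regions, members or not, varied by block. In the K block, from Tapbp to H2-Ke6 with 2 kb to each side, the authors' deposited table called 13 of 14 regions lower, and in the class II block 12 of 20. Between the class II block and H2-D1, a stretch of 918 kb that holds no member, the authors' deposited table has 33 of 53 regions lower and 2 higher. In the D and Q block 2 of 9 were lower and none higher, and in the T block 7 of 17 were lower and 1 higher. The M block held 12 regions over 1203 kb, 10 of them lower by the authors' deposited table, and peaks covered 0.795% to 1.39% of its length. Over chromosome 17 as a whole, the authors' deposited table called 48.7% of 1773 regions lower and 8.97% higher. The D and Q block thus had the lowest share of lower calls of the 6 blocks, from 9 regions, and differences between blocks were not tested.

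**Figure D5:**
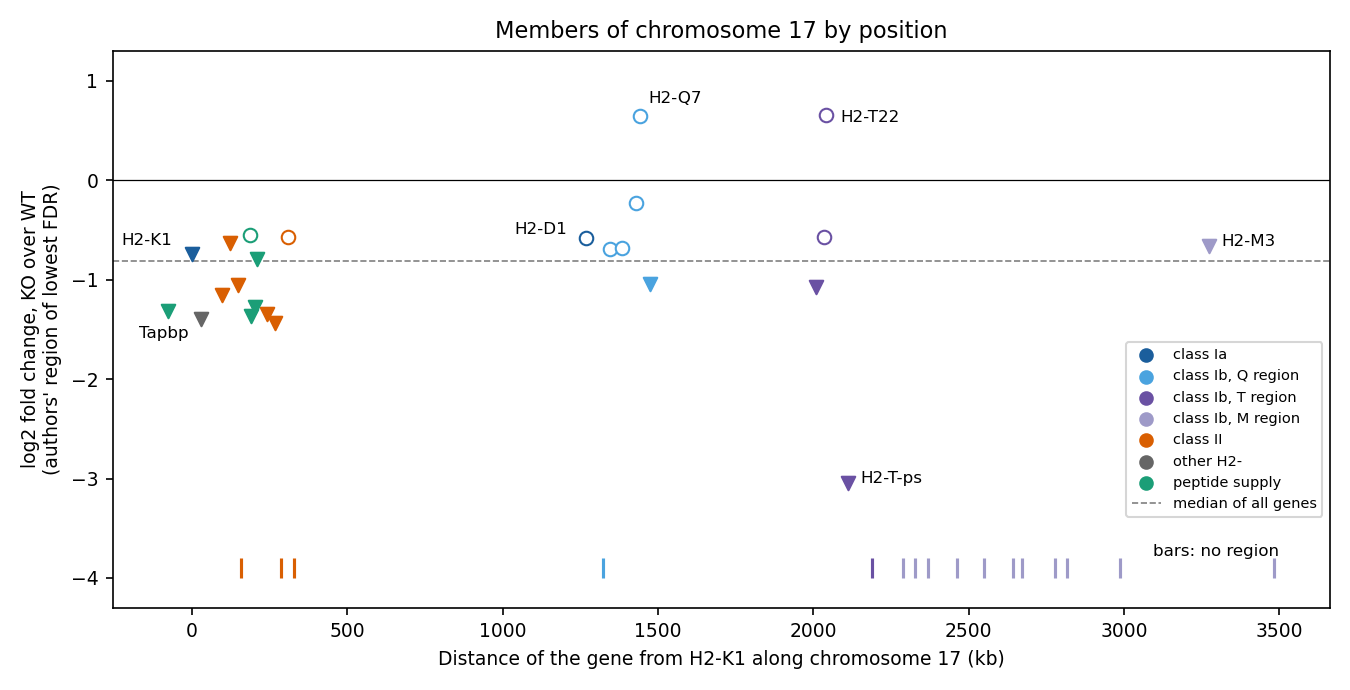
Position of the 40 members of chromosome 17, as distance from H2-K1 (x axis, kb), against the log2 fold change of KO over WT in the authors' deposited table, for the region that stands for each gene (y axis). Triangles mark calls, open circles members that were not called, and bars at the bottom the members without a region, 11 of them M region genes.

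Other genes of antigen processing and of the interferon gamma pathway, which induces many MHC genes, came from a separate list. Of 43 such genes 38 had a region, and the authors' deposited table calls 27 of these lower and 2 higher, against 64.3% and 6.40% over all genes. By role, 5 of 6 peptide-loading genes, all 5 peptide-trimming genes with a region, 3 of 6 further proteasome genes and 5 of 6 genes for transcription of MHC genes with a region came out lower in that authors' deposited table. Of the 7 interferon gamma pathway genes 4 were lower and 1 higher, of the 7 class II processing genes with a region 4 were lower and 1 higher, and the 1 MHC-like gene with a region was lower in the authors' deposited table. The 4 lowest FDRs among the lower genes there were those of Tapbpl, a tapasin-related editor, at -1.20 (FDR 3.91e-07), Ctss, the protease that cuts the invariant chain, at -1.96 (FDR 5.05e-07), Psme3 at -1.23 (FDR 2.54e-06) and Ifngr2, a chain of the interferon gamma receptor, at -1.05 (FDR 8.29e-06), all from the authors' deposited table. The Tapbpl region also lies at Cd27, so that call is not of Tapbpl alone. Irf1, an interferon-induced activator of class I genes, was higher at 0.95 (FDR 4.85e-04), and Lgmn, a lysosomal protease, was higher at 0.62 (FDR 0.0436) in the authors' deposited table. Peaks at the Irf1 ends covered 3031, 2871 and 2643 bp in WT and 3476, 3944 and 2622 bp in KO, which overlap.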

How the data were processed

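H3K9/14ac ChIP-seq was analysed in 3 WT and 3 KO libraries, and 6 input libraries were not used here. Per the submitters' processing notes, the tools were MACS2 2.2.6, Bowtie2 2.3.5.1, cutadapt 2.8, deepTools 3.3.2 and bcl2fastq 2.20.0.422, and the builds were mm10 and GRCm38. For the differential table, program and scaling are not stated by any label. The deposited peak lists, called per library, hold a score per peak, its fold over background as a ratio, and the -log10 of its p-value and of its q-value. The lists on paired fragments were used throughout and those on single reads as an alternative. The deposited differential table gives a log2 fold change of the best 150 bp window, a p-value and an FDR for each region, but nothing per library, which allows neither a refit nor leaving a library out. The deposited list of significant regions has a score made from the FDR.

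Spans of 24128 significant regions were taken from the deposited list. The windows overlapping single-read peaks were joined for the others, which rebuilt 98.8% of the listed spans exactly, placed 16569 more, left 210 at their best window and 2 unlocated. The annotation gives gene spans without strand or exons, so gene ends were used, and starts come from the RefSeq promoter table. Fragments at a summit were solved from fold and -log10 p, within 0.01 of the latter, for 99.97% or more of the peaks of each library, and mean coverage was taken as the smallest background value that 50 or more peaks have in common. Tested on simulated peaks, the script returned the height of nearly all. The authors' log2 fold change followed the log2 ratio of these heights across 1309 regions (Pearson's r 0.993, across regions, which are not independent), and lay 0.49 above it, where the log2 ratio of mean coverage is -0.78. For single members, a two-sided exact permutation test of the difference in means was used. Values cover no counting error.

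Members and lists were chosen with earlier results of these data known. A marker of the lists is not reported here. Every member could be named, values per library were given for fixed members and the 4 lowest and highest calls, and of the other genes the 4 of lowest FDR in each direction. Python 3.11.15, pandas 2.3.3, numpy 2.4.6, scipy 1.17.1 and biopython 1.88 were used.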

Additional observations from a re-analysis of the deposited data

How the results depend on the processing

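The 3 higher members were called within 1 or 5 kb of a gene end, with the widest region or the mean over regions, and with regions near no other gene, while lower members ranged from 13 to 18 of those tested. At an FDR of 0.01 the calls were 13 lower and 2 higher, and with a log2 fold change of 1 or more in size they were 12 and 2, Nlrc5 being lost in both. That fold threshold left 14 of the 22 lower member regions. Of the 2 other antigen processing genes called higher, 1 was left at an FDR of 0.01. Divided by mean coverage, the median log2 ratio of summit fragments was 0.11 in place of -0.66. The difference in members with a peak was -4.33 within 1 kb of a gene end, against -3.33, and -3.67 to -3.17 with each library left out in turn. The log2 ratio of summed cover was -0.25, and -0.29 to -0.23 with each library left out, KO replicate 3 included. With single-read peaks the difference in covered bases, KO minus WT, changed sign at Tap2 (136 to -210 bp), Psmb9 (31.3 to -207 bp), Nlrc5 (-65.3 to 230 bp) and H2-Eb1 (-457 to 42.3 bp), and the cause was not tested. Low coverage in KO limits what a missing peak can show.

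Same-numbered WT and KO libraries had correlations of their deviations of 0.045, -0.0028 and -0.0039 across 10409 genes. Those of differently numbered libraries were -0.044 to 0.047. Such values cannot decide whether same-numbered libraries shared more than a number. With a replicate block the log2 ratio of summed cover was -0.25 and the difference in members with a peak was -3.33. With 3 pairs the smallest sign-flip p is 0.25.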
